A study of Mus musculus with 12 samples.

Results

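Hepatokines are proteins that the liver secretes into the blood and that act on metabolism in other tissues. 9 genes for hepatokines and related secreted metabolic factors were described in livers of wild-type (WT) and CCR1 knockout (CCR1-KO) mice: Fgf21, Gdf15, Angptl4, Angptl6, Angptl8, Ahsg, Fetub, Lect2 and Selenop. They were the rows of the deposited table whose gene symbol equals 1 of these names, 9 of 27912 genes, and all 9 passed the filter on low counts that left 17729 genes for testing. CCR1 is a receptor for inflammatory chemokines. The 6 libraries were made from liver RNA of male C57BL/6 mice, 3 WT mice (numbered 62, 63 and 64) and 3 CCR1-KO mice (numbered 65, 66 and 67). All were 8 weeks old when they started the CL diet, which is rich in fat and cholesterol and contains cholate, and ate it for 12 weeks. Both groups thus share the diet, and livers of chow-fed mice were not analysed here. How the deletion was made, which cells carry it and whether the groups were littermates is not stated in the labels or the series text. The other 6 of the 12 libraries that the labels describe, WT replicates 76, 77 and 80 and replicates 83, 85 and 87 of the group labelled CCR1-LKO, were not analysed here.

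Several of these proteins work as hormones that report the state of the liver. FGF21 and GDF15 are released under nutrient or cellular stress and act on distant tissues and the brain through dedicated receptors, FGF21 through FGF receptors with the co-receptor beta-Klotho and GDF15 through GFRAL in the hindbrain. ANGPTL4 and ANGPTL8 act on lipoprotein lipase, the enzyme that releases fatty acids from circulating triglyceride. Fetuin-A (Ahsg) and fetuin-B (Fetub) are abundant plasma proteins of the cystatin superfamily, LECT2 is a secreted chemotactic factor, and selenoprotein P (Selenop) carries selenium from the liver to other organs.

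The libraries held 74699391 to 79154085 reads assigned to genes, so that 1 read was worth 0.0113 to 0.0167 CPM (the read count relative to library size after TMM scaling). Ccr1 had 100, 23 and 123 reads in the WT libraries in replicate order and 11, 4 and 14 in the CCR1-KO libraries, a CCR1-KO mean of 15.1% of WT (log2 fold change -2.72 ± 0.76 SE, adjusted p = 0.0755 in edgeR's quasi-likelihood test, Benjamini-Hochberg over all tested genes). The major urinary proteins, the Mup family of abundant liver transcripts, took 0.927% to 1.05% of the reads in WT and 3.36%, 12.2% and 15.8% in CCR1-KO replicates 65, 66 and 67. The TMM factors were 1.06 to 1.17 in WT and 1.06, 0.874 and 0.779 in these CCR1-KO libraries. Without this scaling the median log2 fold change of all tested genes was -0.30, against 0.0017 with it, and a member whose call or direction differs between the scales is named as such. CCR1-KO replicate 65 stood nearest to WT, with a mean correlation of 0.958 to the WT libraries and 0.960 to its own group. Hepatocyte markers were high in both groups, with summed levels of 74029 to 87941 CPM in WT and 76015 to 97574 CPM in CCR1-KO, and 4 of 10 were higher in CCR1-KO. Of the stellate cell and fibroblast markers 6 of 10 were lower, with sums of 416 to 972 CPM in WT and 202 to 226 in CCR1-KO, and of the cholangiocyte markers 2 of 7 were lower, with sums of 136 to 208 and 52.2 to 62.02 CPM. Macrophage markers summed to 279 to 356 CPM in WT and 174 to 393 in CCR1-KO. The part of these differences in the results below was not tested, and in whole liver fewer cells of a type and less RNA per cell cannot be told apart.

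The question was whether liver transcripts of these secreted factors differed between CCR1-KO and WT mice on the same diet. Angptl4 rose in CCR1-KO livers, 2.14-fold in CPM and 1.72-fold in FPKM. It was the 1 member of 9 past the adjusted threshold of 0.05, 11.1% of the members. Of all tested genes 6.44% were called (2.83% higher and 3.61% lower). Fgf21, Angptl8, Lect2 and Selenop had lower means in CCR1-KO and Ahsg and Fetub higher ones, but none of these passed. The groups did not overlap in CPM for 6 of 9 members, 2 with CCR1-KO above WT (Angptl4 and Fetub) and 4 with CCR1-KO below (Fgf21, Angptl8, Lect2 and Selenop). Over all tested genes the groups did not overlap for 32.6%, with CCR1-KO above WT for 15.2% and below it for 17.4%. Unadjusted p was under 0.05 for 5 of 9 members and for 24.4% of all tested genes. For the counts by other tools given below, DESeq2 called 14.2% and limma on log2(FPKM + 0.5) 10.5% of all genes they tested. The median log2 fold change of the members was -0.33. With 3 libraries against 3, the exact two-sided permutation test of a single gene cannot give a p below 0.10. The replicates are separate mice by the numbers in their titles, and p-values measure the spread between these animals.

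**Figure D1:**
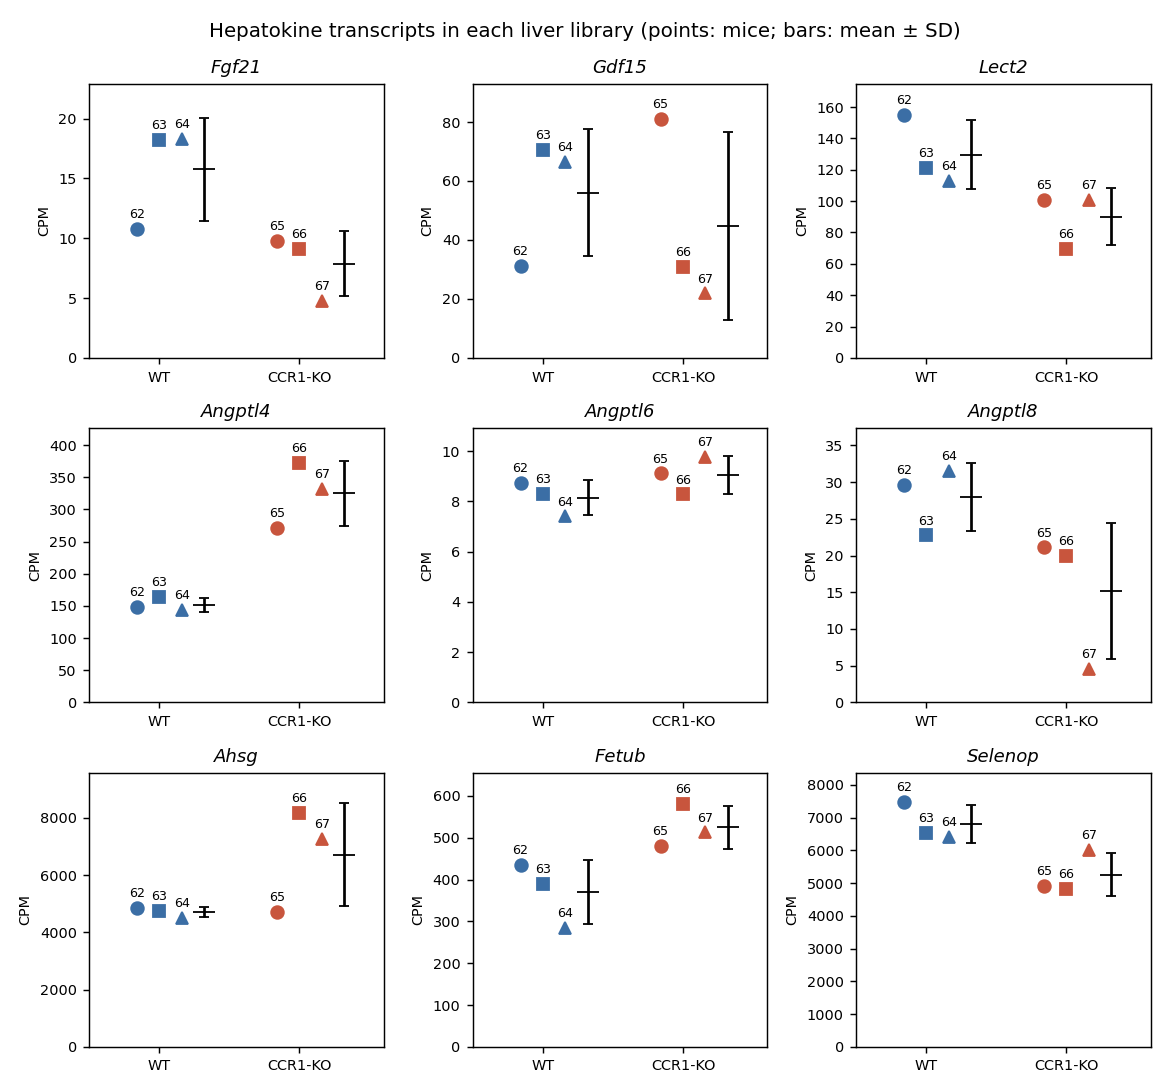
Level of each of the 9 genes in CPM in the 3 WT and 3 CCR1-KO libraries, with 1 point per library and the group mean and SD; panels have their own scale. The Angptl4 points of CCR1-KO (272 to 373 CPM) all lie above those of WT (143 to 164 CPM), while the Gdf15 points of both groups interleave.

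Fgf21 and Gdf15 encode the stress hormones of the set. Fgf21 (ENSMUSG00000030827, chr7:45613886-45615490, minus strand, GRCm38) stood at 10.8, 18.2 and 18.3 CPM in WT 62, 63 and 64, and at 9.77, 9.10 and 4.79 CPM in CCR1-KO 65, 66 and 67. All CCR1-KO values were under all WT values, though WT replicate 62 and CCR1-KO replicate 65 were close, and CCR1-KO replicate 67 was the lowest of all. The means were 7.89 ± 2.71 CPM in CCR1-KO and 15.8 ± 4.30 in WT (SD, n = 3 each), a log2 fold change of -0.999 ± 0.31 (SE; 95% interval -1.71 to -0.29) with adjusted p = 0.0983 by edgeR's quasi-likelihood test, so the difference did not pass. Of the settings run, only DESeq2 called it, at adjusted p = 0.0166.

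Gdf15 (ENSMUSG00000038508, chr8:70629393-70632456, minus strand) had the widest spread of the members in WT, with a coefficient of variation of 38.5%. It measured 31.3, 70.5 and 66.5 CPM in WT 62, 63 and 64, and 81.1, 30.8 and 21.9 CPM in CCR1-KO 65, 66 and 67. The groups overlapped: CCR1-KO replicate 65 held the highest value of all 6 and replicate 67 the lowest, a 3.71-fold range within the group. The means of 44.6 ± 31.9 and 56.1 ± 21.6 CPM differed by a log2 fold change of -0.33 ± 0.50 (95% interval -1.48 to 0.82, adjusted p = 0.732). Leaving out CCR1-KO replicates 65, 66 and 67 in turn gave log2 fold changes of -1.09, -0.12 and -0.0020 (adjusted p = 0.0865, 0.939 and 0.999). Without WT replicates 62, 63 and 64 it was -0.62, -0.13 and -0.19. The size of the difference thus rested on which mice of either group were included.

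The upstream sequences of Fgf21 and Angptl8 are shown because both genes were lower in every CCR1-KO library than in every WT library, were lowest in CCR1-KO replicate 67 and hold the same motif. Each is the 250 bases before the gene's start in RefSeq (GRCm38.p6), 5′ to 3′ on the gene's strand, with motif matches in capitals.
Fgf21, chr7:45615491-45615740, minus strand: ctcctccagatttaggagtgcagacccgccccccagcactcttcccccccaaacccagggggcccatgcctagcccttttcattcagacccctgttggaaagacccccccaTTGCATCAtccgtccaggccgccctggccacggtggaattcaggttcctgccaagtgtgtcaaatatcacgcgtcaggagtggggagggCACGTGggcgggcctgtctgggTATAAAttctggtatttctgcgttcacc
Angptl8, chr9:21835260-21835509, plus strand: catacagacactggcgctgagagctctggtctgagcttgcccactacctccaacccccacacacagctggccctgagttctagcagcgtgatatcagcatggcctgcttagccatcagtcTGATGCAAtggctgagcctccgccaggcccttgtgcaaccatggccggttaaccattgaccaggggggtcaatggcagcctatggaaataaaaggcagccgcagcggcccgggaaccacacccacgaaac
5 motifs were searched on both strands, chosen with the sequences in view: TGATGCAA, a core of the amino acid response element bound by ATF4 with C/EBP proteins; CACGTG, the palindromic E-box; TATAAA, the TATA box; the DR1 repeat of nuclear receptors such as PPAR-alpha with RXR, which is AGGTCA followed after 1 base by AGGTCA; and the palindromic consensus of HNF1. RefSeq windows were found for 8 of the 9 members, 12 windows in all; Angptl4 had no entry. In Fgf21, TGATGCAA lies on the reverse strand, reading TTGCATCA, 139 to 132 bases before the start, CACGTG lies 50 to 45 bases and TATAAA 28 to 23 bases before it. In Angptl8, TGATGCAA lies 130 to 123 bases before the start. TGATGCAA was in 2 of the 12 windows and in 0.791% of 32851 windows of all genes, CACGTG in 2 and in 6.02%, and TATAAA in 3 and in 12.4%. The DR1 repeat and the HNF1 consensus were in 0 of the 12 and in 0.0335% and 0.0609% of all windows. Because the motifs were chosen with these sequences in view, the shares are a description and no test of enrichment. A match is a stretch of letters and was not tested for binding, and no match says only that these letters are not in the window.

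Of the genes for the other FGF ligands and receptors, 1 of 6 tested rose and 0 fell, with a median log2 fold change of 0.06. The gene that rose was Fgf1, a growth factor that uses the same receptor family, at 201 ± 49.1 CPM in CCR1-KO against 88.2 ± 10.3 in WT (log2 fold change 1.19 ± 0.19, adjusted p = 0.0177 by edgeR's quasi-likelihood test). Klb, which encodes beta-Klotho, the co-receptor through which FGF21 acts, had a log2 fold change of 0.08 (95% interval -0.25 to 0.41, adjusted p = 0.782). Of 15 genes for transcription factors known to control Fgf21 or Gdf15, 2 rose and 0 fell, with a median of -0.02. The groups did not overlap for 5 of the 15, all with CCR1-KO above WT, and 6 had an unadjusted p under 0.05. Over all tested genes these shares were 32.6% and 24.4%. DESeq2 called 4 of the 15 and limma on the FPKM scale 0. Mlxipl, the carbohydrate-responsive factor ChREBP, rose by 0.93 ± 0.15 on the log2 scale (adjusted p = 0.0177) and Rora, a nuclear receptor of the circadian clock, by 0.51 ± 0.11 (adjusted p = 0.0377). Neither Ppara, which drives Fgf21 in fasting, nor Atf4, which drives it under amino acid stress, passed, with log2 fold changes of 0.10 (95% interval -0.15 to 0.35) and -0.10 (-0.45 to 0.24). Of 16 known ATF4 targets, 1 rose and 1 fell by edgeR's quasi-likelihood test, with a median of 0.10. Other measures gave more differences in both directions. The groups did not overlap for 8 of the 16, 3 with CCR1-KO above WT and 5 with it below. Unadjusted p was under 0.05 for 7 of the 16. Of all tested genes, 32.6% did not overlap and 24.4% had such a p. DESeq2 called 6 and limma on the FPKM scale 4, where these tools called 14.2% and 10.5% of all genes they tested. Chac1, a glutathione-degrading enzyme, rose by 1.81 ± 0.40 (adjusted p = 0.0401), with the lowest level in CCR1-KO above the highest in WT. Aldh1l2, a mitochondrial folate enzyme, fell (adjusted p = 0.0328) but was barely expressed, with 26, 14 and 31 reads in the WT libraries and 0, 0 and 1 in CCR1-KO replicates 65, 66 and 67. Of 16 PPAR-alpha targets, 0 passed by edgeR's quasi-likelihood test, with a median of 0.03. Unadjusted p was under 0.05 for 4 of these 16, DESeq2 called 3 and limma on the FPKM scale 1. The smallest p was that of Creb3l3, itself a regulator of Fgf21, at a log2 fold change of 0.58 ± 0.14 (adjusted p = 0.0512). The calls of Fgf1 and Mlxipl were kept in 3 of 6 fits that leave out 1 library, and those of Rora, Chac1 and Aldh1l2 in 1 of 6. Under the 7 other settings of scaling, filter and tool, Fgf1 was called in 7, Chac1 in 5, Mlxipl in 4, and Rora and Aldh1l2 in 3 each.

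**Figure D2:**
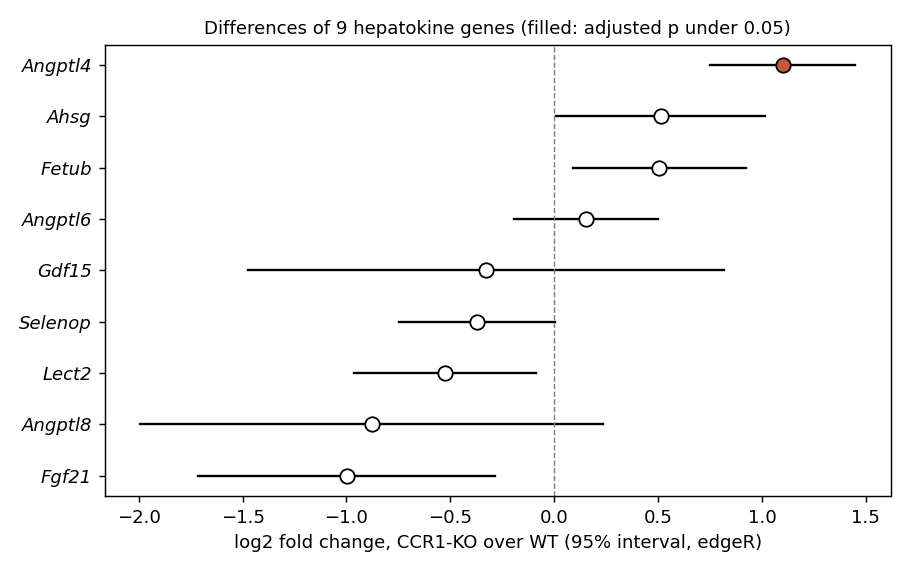
Log2 fold change of CCR1-KO over WT for the 9 genes with 95% intervals, from edgeR's quasi-likelihood fit on TMM-scaled counts; filled points passed the adjusted threshold of 0.05. Angptl4 is the only filled point, at 1.099, and the intervals of Gdf15 and Angptl8 are the widest; the direction of Angptl6 is reversed without scaling and on the FPKM scale.

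Of the angiopoietin-like members, Angptl4 rose and neither Angptl6 nor Angptl8 passed the test. Angptl4 (ENSMUSG00000002289, chr17:33773750-33781830, minus strand) encodes an inhibitor of lipoprotein lipase. Its level was 148, 164 and 143 CPM in WT 62, 63 and 64, and 272, 373 and 331 CPM in CCR1-KO 65, 66 and 67. The WT mice lay within 1.15-fold of each other, every CCR1-KO mouse lay well above them, and replicate 65 was the nearest. The means were 325 ± 50.7 and 152 ± 10.9 CPM (SD, n = 3 each), and the log2 fold change was 1.099 ± 0.15 (SE; 95% interval 0.75 to 1.45) with adjusted p = 0.0117. The call held in all 7 other settings of scaling, filter and tool. It was lost when any of the WT libraries was left out (adjusted p = 0.0515, 0.0600 and 0.0647 without replicates 62, 63 and 64) and kept without each CCR1-KO library. The log2 fold change was 1.08, 1.16 and 1.06 in those 3 fits without a WT library, near that of the full fit. Its size depended on the scale. It was 0.783 without scaling factors, and 0.772 and 0.778 in limma on FPKM with pseudocounts of 0.5 and 0.1. The mean FPKM ratio of CCR1-KO to WT was 1.72, against 2.14 in CPM. The 3 genes whose log2 CPM was most like that of Angptl4 over the 6 libraries, of 9102 compared, were Ces4a, a carboxylesterase (Pearson r = 0.999), Gfra1, a receptor of the GDNF family ligands (r = 0.997), and Sfmbt1, a chromatin protein (r = 0.997). The 6 libraries share the group difference, so these correlations describe the pattern only.

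Angptl8 (ENSMUSG00000047822, chr9:21835510-21837347, plus strand), also called betatrophin, is normally raised by feeding. Its values were 29.6, 22.7 and 31.5 CPM in WT 62, 63 and 64, and 21.1, 19.9 and 4.55 CPM in CCR1-KO 65, 66 and 67. The groups did not overlap, but CCR1-KO replicates 65 and 66 lay just below WT replicate 63, and replicate 67 stood far below the rest. The means of 15.2 ± 9.24 and 28.0 ± 4.61 CPM gave a log2 fold change of -0.88 ± 0.48 (95% interval -1.99 to 0.24, adjusted p = 0.304), and without CCR1-KO replicate 67 the log2 fold change was -0.45. Angptl8 lies inside Dock6, which runs on the opposite strand and measured 15.7 CPM in CCR1-KO and 15.0 in WT. The reads of such pairs cannot be told apart if the counting ignored strand.

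Angptl6 (ENSMUSG00000038742, chr9:20873808-20879727, minus strand), the angiopoietin-related growth factor, had the lowest mean FPKM of the members. It stood at 8.75, 8.30 and 7.40 CPM in WT 62, 63 and 64, and at 9.12, 8.28 and 9.77 CPM in CCR1-KO 65, 66 and 67. The groups overlapped, and the log2 fold change was 0.15 ± 0.15 (95% interval -0.19 to 0.50, adjusted p = 0.579), turning to -0.15 without scaling and to -0.14 and -0.16 in limma on the FPKM scale. Its last bases overlap Shfl on the other strand, which was at 60.9 CPM in CCR1-KO and 110 in WT.

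Of the 6 other angiopoietin-like genes tested, 0 passed by edgeR's quasi-likelihood test, 1 had an unadjusted p under 0.05, and DESeq2 and limma each called 1. All 6 had negative log2 fold changes, with a median of -1.02. The smallest p was that of Angptl2, a pro-inflammatory family member, at -0.996 ± 0.27 (adjusted p = 0.0700). Of 10 genes for lipases that ANGPTL proteins act on and for their partners, 0 rose and 2 fell, with a median of -0.02. Apoc2, the activator of lipoprotein lipase, fell by 1.46 on the log2 scale ± 0.14 (adjusted p = 0.00449), a call kept in all 6 fits that leave out 1 library. Lpl, lipoprotein lipase itself, was at 23.6 ± 6.22 CPM in CCR1-KO against 43.9 ± 3.15 in WT and fell by 0.90 ± 0.19 (adjusted p = 0.0343), a call kept in 1 of those 6 fits. On the FPKM scale, in which fragments are divided by gene length and library size and which allows comparison between genes, the level of Angptl4 relative to Lpl within each library was 10.4, 11.6 and 8.91 in WT and 26.2, 51.8 and 52.3 in CCR1-KO replicates 65, 66 and 67. The level of Angptl4 relative to Angptl8 was 1.22, 1.76 and 1.11 in WT and 3.14, 4.56 and 17.8 in CCR1-KO. Both ratios were higher in every CCR1-KO library than in every WT library; such ratios within a library do not depend on scaling between libraries, and these were chosen after the values were seen and carry no test.

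**Figure D3:**
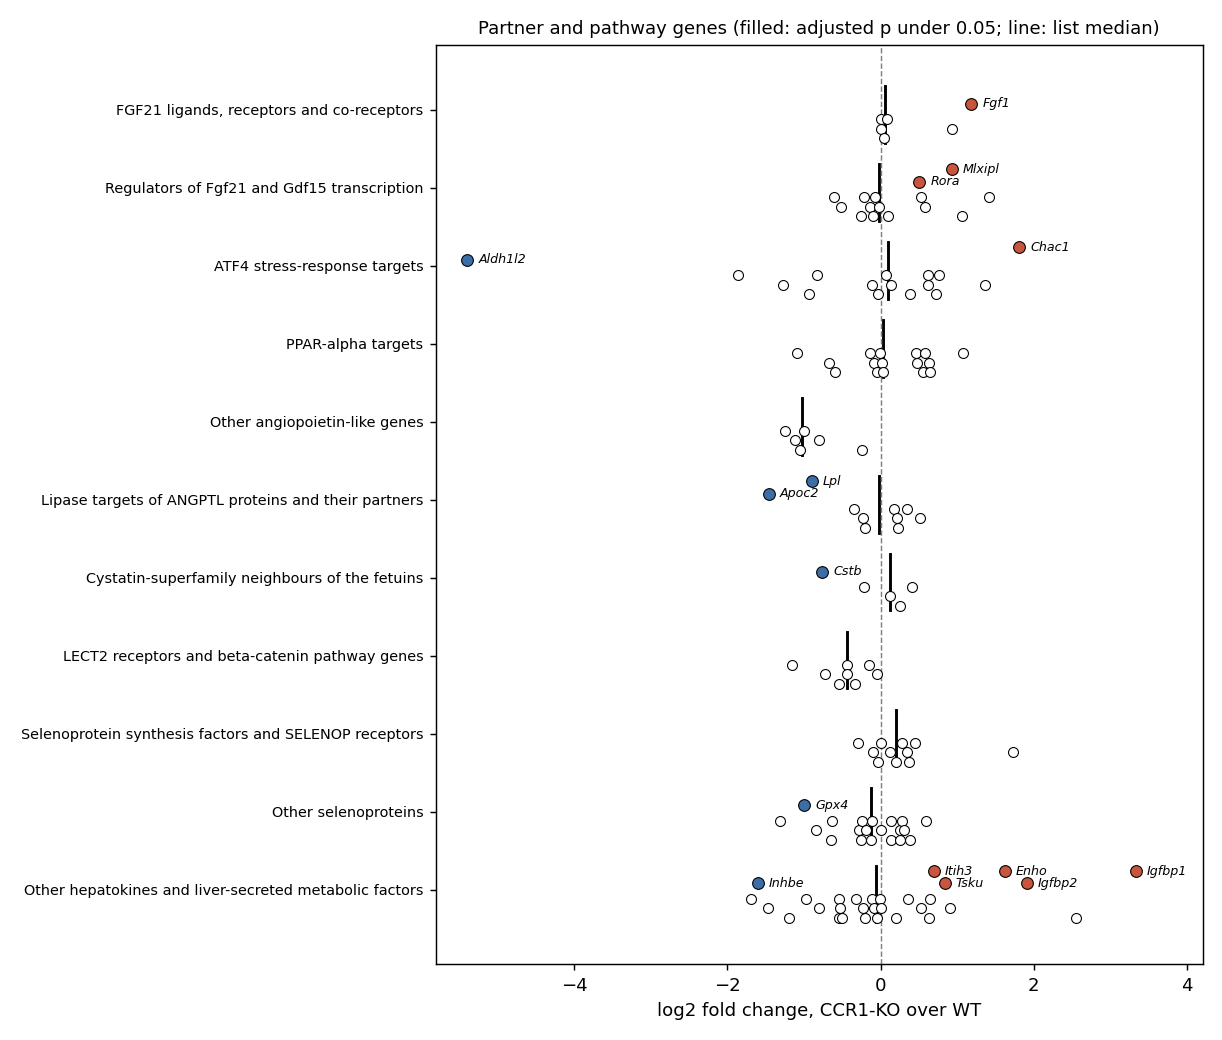
Log2 fold change of CCR1-KO over WT for the tested genes of each partner or pathway list, 1 point per gene, with a line at each list's median; filled points passed the adjusted threshold of 0.05 and are named. The medians run from -1.02 to 0.20, and the other angiopoietin-like genes all lie below 0 with none filled.

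The fetuin genes Ahsg and Fetub lie next to each other on chromosome 16, with 18885 bases between them. Ahsg (ENSMUSG00000022868, chr16:22891277-22899449, plus strand) encodes fetuin-A, which inhibits insulin receptor signalling and tissue calcification. It measured 4867, 4738 and 4513 CPM in WT 62, 63 and 64, and 4706, 8164 and 7275 CPM in CCR1-KO 65, 66 and 67. The WT libraries were tight, CCR1-KO replicates 66 and 67 lay far above them, and replicate 65 lay inside the WT range. The means were 6715 ± 1796 and 4706 ± 180 CPM and the log2 fold change was 0.51 ± 0.22 (95% interval 0.01 to 1.02, adjusted p = 0.197). Without CCR1-KO replicate 65 it was 0.71 with adjusted p = 0.0227, past the threshold, in a fit that called 13.2% of all tested genes. The other edgeR fits that leave out 1 library had adjusted p of 0.318 to 0.488. The log2 fold change of Ahsg was 0.18 without scaling factors and 0.165 in limma on the FPKM scale.

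Fetub (ENSMUSG00000022871, chr16:22918334-22939778, plus strand) encodes fetuin-B, an inhibitor of the metalloproteinase ovastacin that also circulates as a hepatokine. It stood at 435, 389 and 285 CPM in WT 62, 63 and 64, and at 481, 581 and 513 CPM in CCR1-KO 65, 66 and 67. All CCR1-KO values lay above all WT values in CPM, while on the FPKM scale the groups overlapped. The means of 525 ± 51.3 and 370 ± 76.7 CPM gave a log2 fold change of 0.51 ± 0.18 (95% interval 0.09 to 0.92, adjusted p = 0.138), and DESeq2 called it at adjusted p = 0.0463. The mean FPKM ratio of CCR1-KO to WT was 1.13 for Ahsg and 1.16 for Fetub, against 1.43 and 1.42 in CPM. Ahsg overlaps the predicted model Gm30505 on the other strand, which was at 1.49 CPM in CCR1-KO and 1.74 in WT.

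Hrg, Kng2 and Kng1, the secreted cystatin-superfamily genes that follow Fetub on the chromosome, had CPM ratios of 1.33, 1.09 and 1.19, and none passed. Their mean FPKM was 397, 75.3 and 444 in CCR1-KO and 372, 83.9 and 462 in WT. Kng2 and Kng1 thus had lower means in CCR1-KO on the FPKM scale. Of the 5 cystatin-superfamily genes tested beside the fetuins, 0 rose and 1 fell, with a median log2 fold change of 0.13. That gene was Cstb, the intracellular protease inhibitor cystatin B, at -0.76 ± 0.14 (adjusted p = 0.0243 by edgeR's quasi-likelihood test), kept in 1 of 6 fits that leave out 1 library.

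Lect2 (ENSMUSG00000021539, chr13:56542464-56548502, minus strand) encodes a hepatocyte-secreted chemotactic factor that binds the receptors MET and TIE1. It measured 155, 121 and 113 CPM in WT 62, 63 and 64, and 101, 69.2 and 101 CPM in CCR1-KO 65, 66 and 67. The groups did not overlap, with WT replicate 64 closest to CCR1-KO and CCR1-KO replicate 66 the lowest. The means were 90.1 ± 18.1 and 130 ± 22.1 CPM, and the log2 fold change of -0.52 ± 0.19 (95% interval -0.96 to -0.09, adjusted p = 0.142) did not pass. The size depended on the scale, and on the FPKM scale the CCR1-KO mean was 56.9% of WT. The log2 fold change was -0.81 in edgeR without scaling factors (adjusted p = 0.0668). In limma on log2(FPKM + 0.5) it was -0.839, just short of the threshold (adjusted p = 0.0517). The list around LECT2 held its receptors Met, Tie1 and Cd209a, the TIE1 partner Tek, and Ctnnb1, Axin2, Glul and Lgr5 of the Wnt/beta-catenin pathway. Of these 8 genes, 0 passed by edgeR's quasi-likelihood test, with 3 at an unadjusted p under 0.05, 0 called by DESeq2 and 1 by limma. All 8 had negative log2 fold changes, with a median of -0.44. The smallest p was that of Tek, the endothelial receptor TIE2, at -0.54 ± 0.21 (adjusted p = 0.158). Of 7 endothelial markers 6 had negative log2 fold changes, with a median of -0.28, and summed to 157 to 232 CPM in WT and 145 to 187 in CCR1-KO; their part in the values of Tek and Tie1 was not tested. None of the 7 passed by edgeR, with 2 at an unadjusted p under 0.05 and 0 called by DESeq2 or limma.

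Selenop (ENSMUSG00000064373, chr15:3268547-3280508, plus strand) encodes the selenium carrier of plasma and had the highest mean FPKM of the members in WT livers. It stood at 7467, 6520 and 6405 CPM in WT 62, 63 and 64, and at 4905, 4834 and 6004 CPM in CCR1-KO 65, 66 and 67. All CCR1-KO values were under all WT values, with replicate 67 closest to WT. The gene ends within Ccdc152 on the other strand, which was at 6.03 CPM in CCR1-KO and 5.37 in WT. The means were 5248 ± 656 and 6797 ± 583 CPM, 77.2% of WT, and the log2 fold change was -0.37 ± 0.16 (95% interval -0.75 to 0.00, adjusted p = 0.207). The call depended on the scale. On the FPKM scale the CCR1-KO mean was 62.3% of WT. The test passed without scaling factors (log2 fold change -0.68, adjusted p = 0.0342) and in limma on FPKM (adjusted p = 0.0416 and 0.0441 with pseudocounts of 0.5 and 0.1).

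Of 11 genes for selenoprotein synthesis factors and SELENOP receptors, 0 passed by edgeR's quasi-likelihood test, with 3 at an unadjusted p under 0.05, 1 called by DESeq2 and 0 by limma. Their median was 0.20. The smallest p was that of Secisbp2, which binds the selenocysteine insertion element of selenoprotein messages, at 0.45 ± 0.14 (adjusted p = 0.0989). Of 20 other selenoprotein genes 0 rose and 1 fell, with a median of -0.12. That gene was Gpx4, the glutathione peroxidase that reduces lipid peroxides, at 166 ± 25.4 CPM in CCR1-KO against 332 ± 39.8 in WT (log2 fold change -0.997 ± 0.16, adjusted p = 0.0170), kept in 3 of 6 fits that leave out 1 library.

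**Figure D4:**
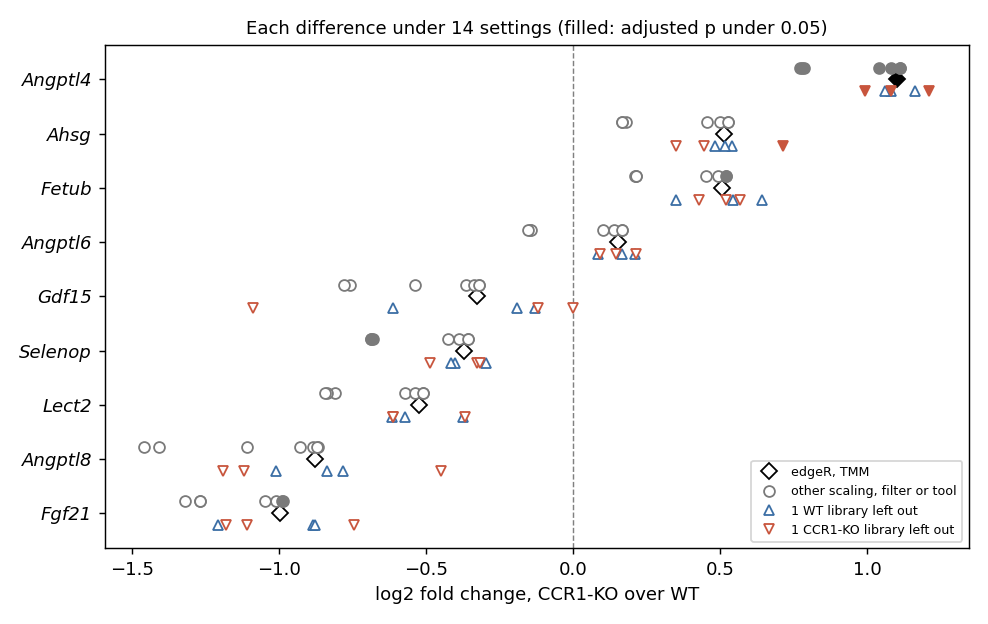
Log2 fold change of CCR1-KO over WT of each member in the main fit and under each other setting of scaling, filter, tool and left-out library. Angptl4 stays above 0 and Fgf21, Lect2 and Selenop below 0 in every setting shown, while Angptl6 crosses 0 without scaling and in limma on FPKM.

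Between members, levels were compared as FPKM. In WT livers the order of mean FPKM was Selenop (2427), Ahsg (2176), Fetub (190.4), Lect2 (143), Angptl4 (43.6), Angptl8 (32.9), Gdf15 (31.1), Fgf21 (17.0) and Angptl6 (5.22). The ranges of Fetub and Lect2, of Angptl8 and Gdf15 and of Gdf15 and Fgf21 overlapped across WT libraries. Within a library Fetub was above Lect2 and Gdf15 above Fgf21 in 3 of 3 WT libraries, and Angptl8 above Gdf15 in 2 of 3. Selenop ranked 29th and Ahsg 33rd by mean FPKM among all genes of the table in WT. In CCR1-KO livers the order was Ahsg (2466), Selenop (1511), Fetub (220), Lect2 (81.3), Angptl4 (74.95), Gdf15 (21.3), Angptl8 (15.2), Fgf21 (7.04) and Angptl6 (4.71). There the neighbours from Lect2 to Angptl4, Gdf15 to Angptl8, Angptl8 to Fgf21 and Fgf21 to Angptl6 overlapped across libraries, and within a library the order held in 3 of 3 for Angptl8 above Fgf21 and in 2 of 3 for each of the others. The order of the leading pair was thus exchanged: the level of Ahsg relative to Selenop within a library was 0.843, 0.940 and 0.911 in WT and 1.24, 2.18 and 1.57 in CCR1-KO replicates 65, 66 and 67. Selenop was the higher in all 3 WT libraries and Ahsg in all 3 CCR1-KO libraries, a description chosen after the values were seen. Gdf15 relative to Fgf21 was 1.49, 1.99 and 1.86 in WT and 4.27, 1.74 and 2.35 in CCR1-KO, and these ranges overlapped. The 9 genes together took 1.35% to 1.39% of all reads in WT and 1.11% to 1.23% in CCR1-KO. After TMM scaling their summed level was 11583 to 13152 CPM in WT and 10586 to 14265 CPM in CCR1-KO, so the groups overlapped and the higher mean was that of CCR1-KO.

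**Figure D5:**
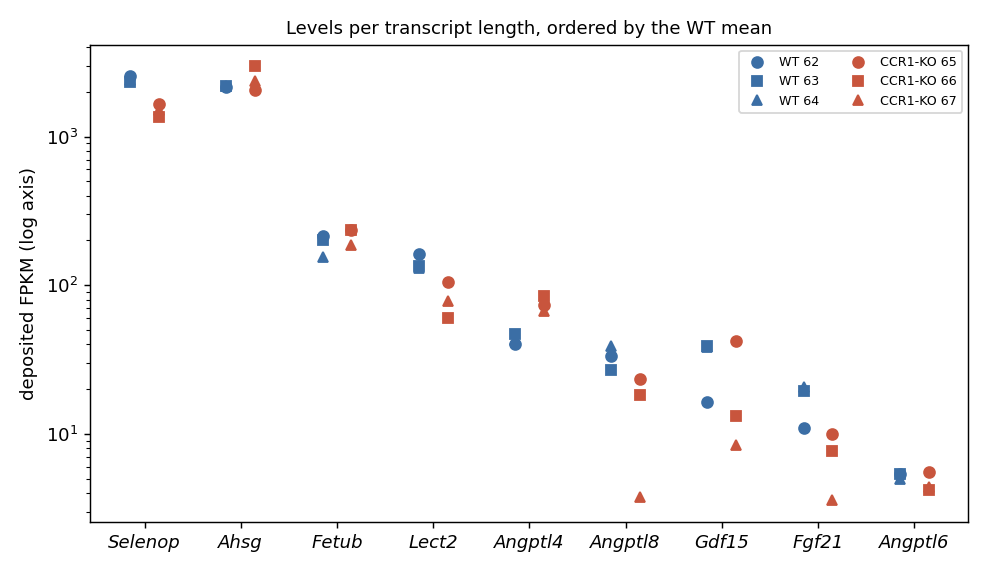
Deposited FPKM of the 9 genes in each of the 6 libraries on a log axis, ordered by the WT mean. Selenop lies above Ahsg in the 3 WT libraries and below it in the 3 CCR1-KO libraries, and Angptl6 has the lowest mean in both groups.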

How the data were processed

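Polyadenylated liver RNA was sequenced in pairs of reads, with dUTP marking of the second strand, per the labels' protocols. Groups came from titles and genotype labels. The submitters' processing notes name HISAT2 2.2.1 and StringTie 2.1.6, as well as cutadapt 1.9, edgeR and DESeq2, without their roles. Per the file headers, the deposited table holds for each gene the read counts and the FPKM values of the libraries. The authors' counts are whole numbers and were used as deposited. Whether counting used strand, and how reads matching several genes were assigned, is not stated in the sources, so values of overlapping genes and of near-identical families such as Mup are uncertain. The notes list GRCh38, but identifiers are of mouse, and all 9 member models have the same coordinates in GENCODE M21 (GRCm38).

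Counts of the 6 libraries were fitted with edgeR 4.0.16 in R 4.3.3 (TMM scaling, filterByExpr with minimum count 10 and minimum total 15, glmQLFit and glmQLFTest), and p-values were adjusted by Benjamini-Hochberg over 17729 genes, with a threshold of 0.05. The SE was obtained by dividing the absolute log2 fold change by the root of the test's F value. Alternatives were other scaling, no filter, DESeq2 1.42.0, limma 3.58.1 on log2(FPKM + 0.5) or log2(FPKM + 0.1), keeping genes that reach an FPKM of 0.5 in 3 libraries, and leaving out each library. Each pair of replicates differed by more than sampling noise (chi-square per degree of freedom at least 68.7). The fits were tested on simulated data.

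The members and gene lists were chosen with earlier results of these data known. Named were all 9 members, Ccr1, and of each list the genes past the threshold, up to 4 by smallest p, or the gene of smallest p where none passed. Enho and Tsku (beyond the 4 of their list), the LECT2 list genes other than Tek, Klb, Gm30505, Ccdc152, Ppara, Atf4, Shfl, Dock6, Hrg, Kng2 and Kng1 were named after their values were seen. Fgf15, Angptl5 and Pcsk3 of the lists were not analysed here, and 1 gene of the lists is not reported here.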

Additional observations from a re-analysis of the deposited data

How the results depend on the processing

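Under the 13 alternatives, the log2 fold changes of Angptl8 and Lect2 kept their direction and stayed short of the threshold. That of Gdf15 never passed and ran from -1.09 to -0.0020 when 1 library was left out. Those of Angptl4, Fgf21, Ahsg, Fetub and Selenop kept their direction. The count of 1 member called became 2 without scaling factors, 3 with DESeq2 and 2 in each limma fit, and 0 to 2 when 1 library was left out. Of all genes tested in each setting, 6.07% were called without scaling factors and 14.2% with DESeq2. The limma fits called 10.5% and 9.49% with pseudocounts of 0.5 and 0.1, and the fits without 1 library 0.558% to 13.2%. The direction of Angptl6 reversed to -0.147 without scaling factors and to -0.144 and -0.156 in limma with pseudocounts of 0.5 and 0.1. The cause was not tested. The share of higher among called genes was 43.9% in the edgeR fit, 20.4% without scaling and 17.0% and 18.3% in limma.

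The 1141 called genes became 735 with no filter on low counts and 2521 with DESeq2. They were 202, 102 and 163 without WT replicates 62, 63 and 64, and 2419, 331 and 395 without CCR1-KO replicates 65, 66 and 67. No paired analysis was possible because the groups share no replicate numbers. With 3 mice a group, calls were often lost when 1 library was left out. Such a fit also has fewer mice, so a lost call does not by itself show that the omitted mouse decided it. The low counts of Aldh1l2 limit its fold change.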

Other observations

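Of 30 other genes for liver-secreted metabolic factors, 5 rose and 1 fell in CCR1-KO, with a median log2 fold change of -0.06. Of all tested genes 2.83% rose and 3.61% fell. The groups did not overlap for 12 of the 30, and 15 had an unadjusted p under 0.05. Over all tested genes these shares were 32.6% and 24.4%. DESeq2 called 12 and limma on log2(FPKM + 0.5) 5, where these tools called 14.2% and 10.5% of all genes they tested. This list was also chosen with earlier results of these data known. Igfbp1, a binding protein of the insulin-like growth factors that insulin represses, was at 470 ± 119 CPM in CCR1-KO against 46.5 ± 11.9 in WT (log2 fold change 3.34 ± 0.25 SE, adjusted p = 0.00217 by edgeR's quasi-likelihood test). Inhbe, which encodes the hepatokine activin E, was at 59.9 ± 8.20 against 182 ± 14.001 CPM and fell by 1.604 ± 0.14 on the log2 scale (adjusted p = 0.00332). Both calls were kept in all 6 fits that leave out 1 library and in all 7 other settings. Igfbp2, a related binding protein, rose by 1.91 ± 0.27 (adjusted p = 0.0127), kept in 4 of 6 such fits. Itih3, a plasma protein that stabilises hyaluronan, rose by 0.69 ± 0.16 (adjusted p = 0.0438), kept in 2 of 6. Enho, which encodes adropin, rose by 1.62 ± 0.37 (adjusted p = 0.0440) and Tsku, the secreted proteoglycan tsukushi, by 0.84 ± 0.20 (adjusted p = 0.0485), each kept in 1 of 6. Of the 7 other settings, Igfbp2 was called in 7, Enho in 4, and Itih3 and Tsku in 2 each.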
